A study of Mus musculus with 28 samples.

Results

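Marrow-derived microglia of mutant chimeras were compared with those of control chimeras across all genes, in 8 of the 28 libraries of the study (4 mutant, 4 control). The libraries were taken by their labels, as the cells without green fluorescent protein (GFP-negative cells) that had been sorted from the brain parenchyma. The mutant group received Vav-Cre: hDNMT3A fl/fl bone marrow, and the control group received hDNMT3A fl/fl bone marrow without Cre. All hosts were lethally irradiated Cx3cr1 gfp/+ mice, whose own microglia carry GFP, and both groups were taken 16 weeks after transplantation. The labels do not state which DNMT3A mutation the human allele carries, the age or sex of the mice, or whether the libraries of a group are separate animals, so p-values reflect only how these libraries vary, which may be technical. Vav-Cre is active in blood-forming cells and in all their progeny, not only in macrophages. No group carried the Cre alone, so effects of the Cre transgene and of the recombined allele cannot be told apart.

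DNMT3A is an enzyme that places new methyl groups on cytosines of CpG pairs. Its mutation in blood stem cells is a common start of clonal haematopoiesis, in which a mutant clone comes to supply a large part of the blood. Microglia normally arise in the embryo and renew themselves in the brain. After irradiation, cells from the marrow can enter the parenchyma and take the place of microglia, while keeping an expression profile of their own.

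RNA was measured by MARS-seq, a method that tags poly(A) RNA near its 3′ end and counts molecules by unique molecular identifiers (UMIs). Totals were 1013608, 937447, 1006525 and 487382 UMIs in mutant libraries 1 to 4, against 479077, 692405, 609676 and 576694 in control libraries 1 to 4. Levels are given in CPM (UMI counts of a gene scaled to the size of its library, after TMM scaling), and 3 UMIs correspond to between 2.96 and 6.26 CPM in these libraries. Fold changes are on the log2 scale, mutant minus control, ± standard error (SE). A gene is called where the adjusted p of edgeR's quasi-likelihood test was under 0.05 (Benjamini-Hochberg, over 12327 genes tested).

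The cells matched the label of marrow-derived microglia. Ms4a7, a membrane protein typical of marrow-derived cells in the brain, averaged 683 CPM in mutant and 780.0 CPM in control donor microglia, against 19.4 CPM in host microglia of mutant chimeras and 14.4 CPM in those of control chimeras. Apoe, the lipid carrier, averaged 83786 CPM in mutant and 104101 CPM in control donor microglia, against 4349 and 2918 CPM in host microglia of mutant and of control chimeras. The transcription factor Sall1, which marks microglia of embryonic origin, was low, at 13.3 CPM in mutant and 20.6 CPM in control donor microglia, against 287 and 299 CPM in host microglia of mutant and of control chimeras. Tmem119, another microglial marker, reached 874 CPM in mutant and 949.6 CPM in control donor microglia, against 3688 and 3867 CPM in host microglia of mutant and of control chimeras. Lyve1, of border macrophages, was near the level of 3 UMIs, at 6.77 CPM in mutant and 7.26 CPM in control donor microglia. Mrc1, another border macrophage gene, lay far above that level in both groups, with values given further below. The border macrophage list took 0.291% to 0.394% of UMIs in mutant and 0.321% to 0.409% in control donor microglia. In control donor leptomeningeal cells it took 0.561% to 0.858%. None of these genes named here was called between genotypes in donor microglia.

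The counts of mouse Dnmt3a did not separate the genotypes. Dnmt3a had 64.5, 67.1, 58.3 and 78.8 CPM in the mutant libraries and 51.8, 73.4, 63.7 and 89.4 CPM in the control libraries, and the groups overlapped. Its fold change was -0.09 ± 0.18 (adjusted p = 0.905), and 2 alternatives turned its sign. The human allele is not counted separately in the table, so these counts check the labels only in part. Of 24 tested genes of the DNA methylation machinery, 0 were called. At an unadjusted p under 0.05, Gadd45b was higher and Mbd2 lower, and the median fold was -0.08, against 0.003 for all genes tested.

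In all, 11 of 12327 genes were called (0.0892%), 7 higher (0.0568%) and 4 lower (0.0324%) in mutant cells. The higher genes serve protease inhibition (Spint1), protein sorting (Commd10), the circadian clock (Per1), the glucocorticoid response (Tsc22d3), transcription control (Id2) and the ribosome (Rpl38, Rps6). The lower genes serve defence against retroviruses (Apobec3), creatine synthesis (Gatm), lysosome-related organelles (Hps6) and sugar trimming in the Golgi (Man1a). In each of the 11 genes the mutant and control libraries did not overlap, a state that 203 genes shared in the higher direction (1.65%) and 235 in the lower (1.91%). An unadjusted p under 0.05 was found for 665 higher genes (5.39%) and 588 lower genes (4.77%).

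The number of calls rested on single libraries. Leaving out control library 1 gave 3 calls, control library 2 gave 544 and control library 4 gave 6. Leaving out mutant library 2 or 3 gave 7 calls each, and mutant library 4 gave 18. DESeq2 called 72 genes and limma's voom 124, and each set held all 11.

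Spint1 encodes a Kunitz-type protein at the cell surface that blocks serine proteases (on mm10, chromosome 2, 119237362 to 119249527, plus strand). It had 83.0, 74.7, 48.8 and 78.8 CPM in mutant libraries and 16.6, 7.06, 9.79 and 13.5 CPM in control libraries. The lowest mutant library lay far above the highest control library. Spint1 rose by 2.63 ± 0.28 (adjusted p = 2.38e-08) and was called under each of 17 alternatives. Host microglia held more of it than either donor group, at 246 ± 22.7 CPM in mutant and 250.3 ± 20.3 CPM in control chimeras (SD, n = 4 each). Of 33 tested homeostatic microglial genes, 0 were called.

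Commd10 encodes a subunit of the COMMD complex, which helps return membrane proteins from endosomes to the cell surface (chromosome 18, 46958816 to 47234284, plus strand). It had 95.7, 75.8, 75.5 and 89.1 CPM in mutant libraries and 37.3, 19.8, 19.6 and 13.5 CPM in control libraries. All mutant libraries lay well above control library 1, the highest control. Commd10 rose by 1.93 ± 0.22 (adjusted p = 2.62e-07) and was called under each of 17 alternatives. The other 14 tested genes of the COMMD complexes and their partners gave 0 calls, and Ccdc93, Commd7 and Snx17 were lower at an unadjusted p under 0.05. The list's median fold was -0.17. One widely used Vav-Cre mouse line carries its transgene at the Commd10 locus, and the labels do not say which line was used. The measured genes nearest to Commd10 on either side, Ap3s1 and Dmxl1, had folds of -0.40 ± 0.30 and -1.05 ± 0.37 and were not called. Their starts lay 217 kb and 2874 kb from that of Commd10, and Dmxl1 had an unadjusted p of 0.007 in edgeR's test.

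Per1 is a repressor of the circadian clock that glucocorticoids also induce (chromosome 11, 69095217 to 69109960, plus strand). It had 89.9, 94.2, 138 and 114 CPM in mutant libraries and 31.1, 43.7, 39.2 and 69.2 CPM in control libraries. Control library 4 came closest to the mutant range. Per1 rose by 1.23 ± 0.20 (adjusted p = 0.00119). Tsc22d3, also called GILZ, is induced by glucocorticoids and limits inflammation (chromosome X, 140539528 to 140600659, minus strand). It had 124, 105, 114 and 91.2 CPM in mutant libraries and 58.0, 45.2, 62.0 and 81.0 CPM in control libraries. Again control library 4 lay nearest to the mutant cells. Tsc22d3 rose by 0.84 ± 0.17 (adjusted p = 0.0191). Per1 was called under 16 of 17 alternatives and Tsc22d3 under 12, and neither was called with the summed astrocyte and neuron genes as a covariate.

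Id2 encodes a protein that blocks E-protein transcription factors (chromosome 12, 25093799 to 25097140, minus strand). It had 275, 354, 247 and 265 CPM in mutant libraries and 189, 233, 153 and 175 CPM in control libraries. The gap between the groups was small, from 233 CPM in control library 2 to 247 CPM in mutant library 3. Id2 rose by 0.60 ± 0.13 (adjusted p = 0.0289) but missed the threshold under 9 of 17 alternatives, and Id1, Id3 and Id4 were not called. Rpl38, of the large ribosomal subunit, had 523, 460.0, 596 and 464 CPM in mutant libraries and 253, 374, 322 and 239.6 CPM in control libraries. Rps6, of the small subunit and a target of S6 kinase, had 393, 228, 255 and 201 CPM in mutant libraries and 178, 192, 160.0 and 154 CPM in control libraries. Rpl38 rose by 0.78 ± 0.15 (adjusted p = 0.0124) and Rps6 by 0.67 ± 0.14 (adjusted p = 0.0308), and they missed the threshold under 6 and 8 of 17 alternatives. Mutant library 1 held far more Rps6 than the other mutant libraries. Ribosomal protein genes have near-identical processed copies in the genome, so their counts are less certain than those of single-copy genes.

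Apobec3 edits cytidines in the DNA copies of retroviruses and so hinders them (chromosome 15, 79891659 to 79915906, plus strand). It had 128, 102, 144 and 109.9 CPM in mutant libraries and 240.4, 157, 207 and 214 CPM in control libraries. Control library 2 lay just above the highest mutant library. Apobec3 fell by 0.74 on the log2 scale (SE 0.13, adjusted p = 0.00443), a call that was lost under 5 of 17 alternatives, the 8 libraries fitted alone and the astrocyte and neuron covariate among them. Its last 100 bases overlap those of Cbx7 on the opposite strand, and the sources used here do not state whether counting used strand, so its value is less certain. Cbx7 averaged 34.0 CPM in mutant and 45.8 CPM in control cells and was not called (adjusted p = 0.596). Of 22 tested genes that restrict retroviruses, Apobec3 alone was called, and Trim5 and the RNA-editing deaminase Apobec1 were lower at an unadjusted p under 0.05. Trim5 had 2.93, 3.25, 2.87 and 4.15 CPM in mutant libraries and 8.29, 14.1, 9.79 and 10.1 CPM in control libraries, values of few UMIs each.

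Gatm catalyses the first step of creatine synthesis (chromosome 2, 122594467 to 122611303, minus strand). It had 330.2, 374, 390.0 and 383 CPM in mutant libraries and 616, 536, 553 and 579 CPM in control libraries. Both groups were tight and lay well apart. Gatm fell by 0.63 on the log2 scale (SE 0.13, adjusted p = 0.0207). This call was lost under 8 of 17 alternatives, among them the 8 libraries fitted alone, the astrocyte and neuron covariate and 5 of 8 omissions of a single library. Gamt, the second enzyme of the path, had a fold of 0.36 and was not called. Gatm lies 3.34 Mb from Spint1 on the same chromosome, with 53 tested genes between them. Of these, 0 were called, and 3 were higher and 2 lower at an unadjusted p under 0.05.

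Hps6 is a subunit of BLOC-2, a complex that builds lysosome-related organelles (chromosome 19, 46003508 to 46006173, plus strand). It had 2.93, 5.41, 9.56 and 4.15 CPM in mutant libraries and 16.6, 24, 11.4 and 28.7 CPM in control libraries. These values rest on 3, 5, 10 and 2 UMIs in mutant and 8, 17, 7 and 17 UMIs in control libraries. Hps6 fell by 1.82 on the log2 scale (SE 0.37, adjusted p = 0.0191) and missed the threshold under 6 of 16 alternatives. With the 8 libraries fitted alone, Hps6 did not pass the low-count filter and was not tested. The other 20 tested genes of these organelles gave 0 calls. Man1a trims mannose from N-linked sugar chains in the Golgi (chromosome 10, 53904785 to 54076609, minus strand). It had 31.3, 18.4, 22 and 29.0 CPM in mutant libraries and 49.7, 39.5, 55.5 and 55.7 CPM in control libraries. The groups stood clear of each other. Man1a fell by 1.00 on the log2 scale (SE 0.21, adjusted p = 0.0272). This call was lost under 9 of 17 alternatives, among them the 8 libraries fitted alone, both covariates and 5 of 8 omissions of a single library. Of 22 tested genes of N-glycan processing, it was the only one called.

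**Figure D1:**
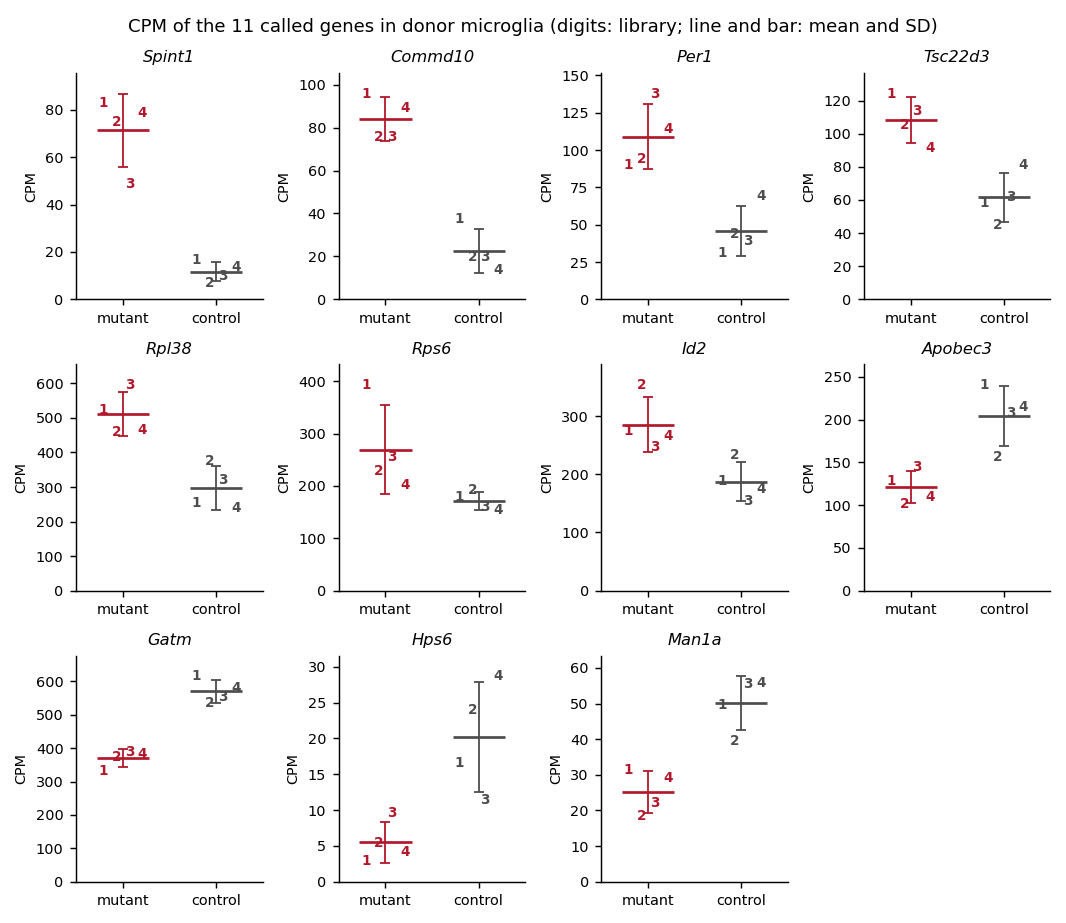
CPM (y axis, from 0) of the 11 called genes in donor microglia of mutant (red, left) and control (grey, right) chimeras, with digits giving the library, lines the mean and bars the SD of 4 libraries. Mutant and control libraries do not overlap in any panel, with Spint1, for example, from 48.8 to 83.0 CPM in mutant and from 7.06 to 16.6 CPM in control libraries.

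The 66 measured genes nearest to the called genes (up to 3 on each side of each) gave 0 calls. At an unadjusted p under 0.05, 11 of them passed in either direction (16.7%), against 1253 of 12327 genes tested (10.2%). Vamp2, a synaptic vesicle protein next to Per1, had a mean of 222 CPM in mutant and 121 CPM in control cells, with a fold of 0.86 ± 0.22 (adjusted p = 0.157). Pprc1, near Hps6, averaged 13.3 CPM in mutant and 27.0 CPM in control cells, with a fold of -0.94 ± 0.28 (adjusted p = 0.188).

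Because DNMT3A acts on CpG pairs, the CpG content of the promoters is shown for 3 of the genes called in both donor populations of the brain, and the promoter of Per1 for its clock element. RefSeq's table on GRCm38.p6 held the 10 of the 11 called genes that were looked up in it, all but Commd10. Its windows of 250 bases before a start held a median of 6 CpGs over 32817 windows, with quartiles of 2 and 16. The window of Spint1 (chr2:119237110-119237359, plus strand) held 26 CpGs, more than 90.4% of all windows. Those of Gatm (chr2:122611278-122611527, minus strand) and of the first of 2 Apobec3 starts (chr15:79892158-79892407, plus strand) held 17 and 12. These counts were above those of 76.5% and 66.5% of all windows. Among called genes that were not called in donor leptomeningeal cells, Man1a had 31 CpGs, Hps6 20, Rps6 19, Id2 18 and Rpl38 8. Per1 had 9 and 19 at its 2 starts, and Tsc22d3 had 10, 2 and 12 at its 3 starts. The windows compared were not limited to genes tested here, and a link between CpG content and the calls was not tested. Capitals mark CpGs in the first 3 sequences, which run 5′ to 3′ on the gene's strand. DNA methylation was not measured here.
Spint1: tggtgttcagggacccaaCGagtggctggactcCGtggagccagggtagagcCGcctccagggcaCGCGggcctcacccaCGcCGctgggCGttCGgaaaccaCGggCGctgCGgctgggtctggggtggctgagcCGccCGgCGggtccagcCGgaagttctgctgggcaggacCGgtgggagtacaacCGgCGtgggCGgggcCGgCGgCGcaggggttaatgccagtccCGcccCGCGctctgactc
Apobec3: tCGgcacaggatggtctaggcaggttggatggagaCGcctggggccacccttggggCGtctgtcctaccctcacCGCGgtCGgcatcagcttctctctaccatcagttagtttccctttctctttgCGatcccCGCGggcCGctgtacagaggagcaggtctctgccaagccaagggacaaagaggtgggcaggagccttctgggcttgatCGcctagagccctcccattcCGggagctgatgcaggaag
Gatm: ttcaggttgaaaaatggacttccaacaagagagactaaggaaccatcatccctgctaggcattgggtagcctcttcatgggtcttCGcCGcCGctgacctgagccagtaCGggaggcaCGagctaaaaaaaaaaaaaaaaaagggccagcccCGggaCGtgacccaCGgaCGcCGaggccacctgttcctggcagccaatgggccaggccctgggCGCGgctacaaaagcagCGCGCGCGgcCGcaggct
In the window of the first of 2 Per1 starts (chr11:69098699-69098948, plus strand), capitals mark the E-box CACGTG, which reads the same on both strands and is the element that the clock factors CLOCK and BMAL1 bind. It began 166 bases before the start. This motif was present in 6.02% of all windows, and in none of the other 13 windows of these genes.
Per1: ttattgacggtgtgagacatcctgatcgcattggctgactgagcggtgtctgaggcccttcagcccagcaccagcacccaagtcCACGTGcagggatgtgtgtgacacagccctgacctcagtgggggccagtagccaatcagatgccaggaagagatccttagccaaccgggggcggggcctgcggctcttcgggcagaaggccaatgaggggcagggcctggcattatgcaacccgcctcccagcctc
The second Apobec3 start, not printed, had 3 CpGs in its window, fewer than the median window.

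The genes called in donor microglia were also looked up in donor cells of the leptomeninges, the membranes over the brain. In donor leptomeningeal cells 6 genes were called (0.0487%), and Spint1, Commd10, Apobec3 and Gatm were among them. These 4 make up 4 of 11 genes called in donor microglia and 4 of 6 called in donor leptomeningeal cells. Spint1 averaged 12 ± 2.72 CPM in mutant and 1.73 ± 1.65 CPM in control leptomeningeal cells (SD, n = 4 each), with a fold of 2.89 ± 0.36 (adjusted p = 1.61e-06). Control leptomeningeal libraries 1 to 4 had 4.08, 0.767, 1.66 and 0.412 CPM of Spint1. There 3 UMIs correspond to between 0.978 and 1.39 CPM, so this fold rests on few control UMIs. Commd10 averaged 69.7 ± 13.6 CPM in mutant and 17.5 ± 2.29 CPM in control leptomeningeal cells, with a fold of 1.97 ± 0.18 (adjusted p = 1.27e-10). Apobec3 averaged 113 ± 7.23 CPM in mutant and 178 ± 1.17 CPM in control leptomeningeal cells, with a fold of -0.66 ± 0.12 (adjusted p = 0.00335). Gatm averaged 134 ± 20.5 CPM in mutant and 207 ± 26.5 CPM in control leptomeningeal cells, with a fold of -0.63 ± 0.13 (adjusted p = 0.0246), and was not called in 5 of 16 alternatives, each the omission of a single leptomeningeal library. Donor microglia held more Spint1 and more Gatm than donor leptomeningeal cells of the same genotype. The labels do not tie the parenchymal and leptomeningeal libraries to the same or to different animals.

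The other 7 genes were not called in donor leptomeningeal cells. Per1, Tsc22d3, Rpl38 and Rps6 had folds of 0.33 ± 0.15, 0.25 ± 0.13, 0.22 ± 0.14 and 0.16 ± 0.13 there. Id2 had a fold of -0.05 ± 0.12 and Hps6 of 0.26 ± 0.25. Man1a averaged 44.9 ± 3.74 CPM in mutant and 44.6 ± 6.49 CPM in control leptomeningeal cells. A direct test of the genotype effect in donor microglia minus that in donor leptomeningeal cells called 0 genes (0%), with edgeR. An unadjusted p under 0.05 was found for 787 genes, and no adjusted p was below 0.155. DESeq2 called 2 genes, and voom and the fit with a replicate block 1 each. Hps6, at -2.08 ± 0.44 (adjusted p = 0.155), and Man1a, at -1.0 ± 0.26 (adjusted p = 0.343), had the largest fitted differences among the 11 genes. This contrast shares the donor microglia libraries with the comparison above, as does the one with host microglia. Without control library 2, 149 genes were called for this difference, Hps6 and Man1a among them.

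Host microglia do not derive from the transplanted marrow. There 8 genes were called between chimeras (0.0649%). None of the 11 was among them, though Tsc22d3 was called in host microglia under 6 of 16 alternatives. The genotype effect in donor minus host microglia was called for 4 genes (0.0324%), Spint1 at 2.66 ± 0.31 (adjusted p = 7.07e-07), Commd10 at 1.64 ± 0.28 (adjusted p = 0.00364), Gatm at -0.98 ± 0.18 (adjusted p = 0.0125) and Apobec3 at -0.89 ± 0.17 (adjusted p = 0.0194). This count was 74 without control donor library 2, and 2 without control donor library 1, mutant donor library 2 or control host library 4. It was 7 without mutant host library 1. Gatm and Apobec3 were those lost where 2 remained. Over 24 alternatives the call held in all for Spint1, was lost for Commd10 with the neutrophil covariate (adjusted p = 0.357), and was lost in 7 for Gatm and in 12 for Apobec3, with both covariates among the 12.

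For Per1 and Tsc22d3 the difference between donor and host microglia was not called. Tsc22d3 averaged 66.1 ± 11.6 CPM in host microglia of mutant chimeras and 41.7 ± 4.14 CPM in those of control chimeras (SD, n = 4 each), with a fold of 0.65 ± 0.14 (adjusted p = 0.0507). It passed under 6 of 16 alternatives, among them DESeq2, voom, DESeq2's size factors and the replicate block, and its adjusted p ranged from 0.00837 to 0.423. Per1 averaged 62.2 ± 14.1 CPM in host microglia of mutant chimeras and 41.5 ± 8.43 CPM in those of control chimeras, with a fold of 0.57 ± 0.16 (adjusted p = 0.592). The difference between donor and host folds was 0.20 ± 0.22 for Tsc22d3 (adjusted p = 0.937) and 0.67 ± 0.26 for Per1 (adjusted p = 0.751).

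**Figure D2:**
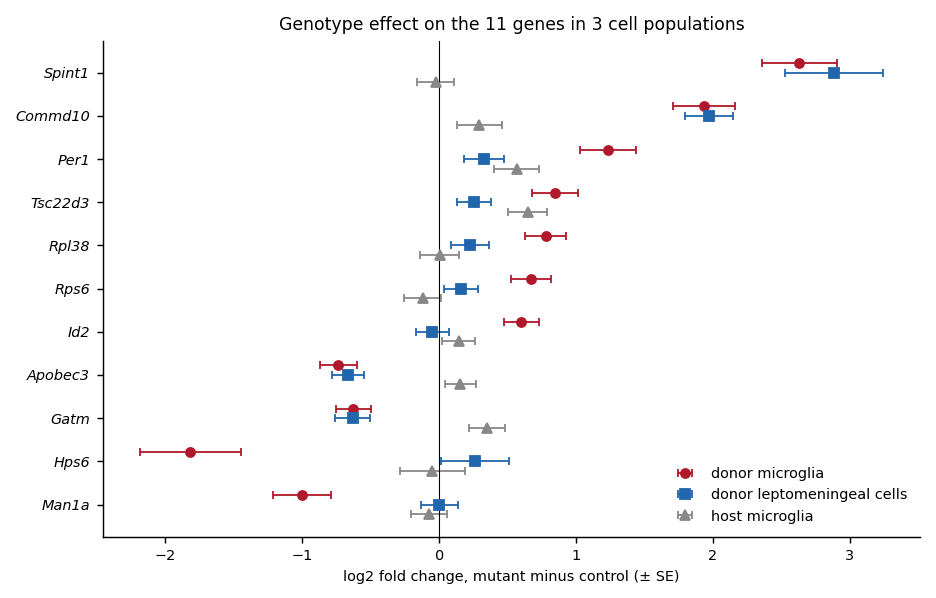
Log2 fold change, mutant minus control, ± SE (x axis) of the 11 called genes (y axis) in donor microglia (red circles), donor leptomeningeal cells (blue squares) and host microglia (grey triangles), 4 libraries per group. Red and blue marks coincide for Commd10, Apobec3 and Gatm and have overlapping bars for Spint1, while host marks for these 4 genes lie between -0.02 and 0.35.

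Below the threshold, the next genes by unadjusted p, taken only from genes whose libraries did not overlap between genotypes, included several of the respiratory chain and the ribosome. Cox7c, a subunit of cytochrome c oxidase, had 192, 179.7, 185 and 168 CPM in mutant libraries and 68.4, 164, 104 and 84.4 CPM in control libraries (fold 0.76 ± 0.17, adjusted p = 0.0596). Control library 2 was close to the mutant libraries, and the other 3 control libraries were far below. Cox6b1, of the same complex, had a fold of 0.62 ± 0.15 (adjusted p = 0.097), and Sdhc, of succinate dehydrogenase, 0.65 ± 0.16 (adjusted p = 0.117). Eps8l1, linked to actin remodelling, had 36.1, 27.1, 26.8 and 26.9 CPM in mutant libraries and 16.6, 12.7, 9.79 and 10.1 CPM in control libraries (fold 1.28 ± 0.33, adjusted p = 0.144). Eps8l1 was called in donor leptomeningeal cells, with a fold of 1.94 ± 0.26 (adjusted p = 1.38e-05). Among lower genes, the actin regulator Wipf1 had 40.1, 48.7, 48.8 and 45.6 CPM in mutant libraries and 68.4, 74.8, 84.9 and 69.2 CPM in control libraries (fold -0.70 ± 0.17, adjusted p = 0.117). The kinase Btk had 30.3, 26.0, 36.3 and 37.3 CPM in mutant libraries and 72.5, 42.3, 49.0 and 74.2 CPM in control libraries (fold -0.87 ± 0.22, adjusted p = 0.126). Plac8, found in monocytes and other marrow cells, had 12.7, 21.6, 11.5 and 10.4 CPM in mutant libraries and 45.6, 33.9, 63.7 and 40.5 CPM in control libraries (fold -1.66 ± 0.41, adjusted p = 0.146). Control library 2 was the lowest control for Btk and Plac8, and control library 3 the highest for Wipf1 and Plac8.

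Gene lists are described by counts and medians, beside those of all genes tested, where the median fold was 0.003 and an unadjusted p under 0.05 was found for 5.39% higher and 4.77% lower. Of 78 tested cytosolic ribosomal protein genes, 2 were called, Rpl38 and Rps6, and 38 were higher and 0 lower at an unadjusted p under 0.05. Their median fold was 0.25, and 75 of 78 folds were above 0. The list took 9.09%, 9.83%, 9.29% and 9.10% of UMIs in mutant libraries and 8.01%, 8.49%, 8.16% and 7.38% in control libraries, with no overlap. Rps14 had 3496, 3473, 3209 and 3026 CPM in mutant libraries and 2669, 2544, 2271 and 2097 CPM in control libraries (fold 0.46 ± 0.11, adjusted p = 0.117). With the summed astrocyte and neuron genes as a covariate, 25 of the 78 were higher at an unadjusted p under 0.05 and 0 were called. Over all 12327 genes, that covariate gave 459 higher and 260 lower at this level. These counts are the background for its use in the lists below. Of 75 tested nuclear genes of the respiratory chain, 0 were called, and 26 were higher and 0 lower at an unadjusted p under 0.05, with a median of 0.25. With that covariate 7 were higher, and the median was 0.06. The list took 1.89%, 2.41%, 2.24% and 2.11% of UMIs in mutant libraries and 1.43%, 2.41%, 1.72% and 1.71% in control libraries, where library 2 lay at the mutant level. Without control library 2, 23 ribosomal and 22 respiratory chain genes were called, all higher. That fit called 474 genes higher and 70 lower among all 12232 genes tested in it. It also called 17 of 20 astrocyte and 12 of 23 neuron markers, all higher.

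Of 22 tested glucocorticoid response genes, Per1 and Tsc22d3 were called, and 8 were higher and 0 lower at an unadjusted p under 0.05, with a median of 0.18. Ddit4, a stress-induced brake on mTOR, had 21.5, 57.4, 45.9 and 41.5 CPM in mutant libraries and 16.6, 29.6, 16.3 and 8.44 CPM in control libraries (fold 1.18 ± 0.30, adjusted p = 0.144). Mutant library 1 lay within the control range. Dusp1, a phosphatase that shuts off MAP kinases, had 223, 274, 215 and 219.7 CPM in mutant libraries and 162, 182, 173 and 172 CPM in control libraries (fold 0.43 ± 0.13, adjusted p = 0.182). The genes Nr3c1 (the receptor itself), Fkbp5 and Klf9 had folds of -0.08, 0.20 and 0.22 and were not called. With the astrocyte and neuron covariate 7 of the 22 were higher at an unadjusted p under 0.05, and 0 were called.

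Of 20 tested clock genes, Per1 was called, and 4 were higher and 0 lower at an unadjusted p under 0.05, with a median of 0.11. The other 3 were Nr1d1, Dbp and Hlf, which encode a nuclear receptor and a pair of PAR bZIP factors of the clock's output. Nr1d1 had 30.3, 30.3, 44.9 and 39.4 CPM in mutant libraries and 12.4, 32.5, 16.3 and 8.44 CPM in control libraries (fold 0.99 ± 0.30, adjusted p = 0.205). Dbp had 51.8, 56.3, 82.2 and 70.5 CPM in mutant libraries and 33.2, 55.0, 34.3 and 30.4 CPM in control libraries (fold 0.74 ± 0.23, adjusted p = 0.205). In Nr1d1, Dbp and Hlf control library 2 was the highest control and reached the mutant range. With the astrocyte and neuron covariate, 1 clock gene was higher and 1 lower at an unadjusted p under 0.05. Per2 and Cry1, other repressors of the clock, had folds of -0.36 and 0.25 and were not called.

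Of 26 tested immediate early genes, 0 were called, and 5 were higher and 1 lower at an unadjusted p under 0.05, with a median of 0.23. The nuclear receptor Nr4a1 had 187, 121, 199.8 and 159.6 CPM in mutant libraries and 99.5, 84.7, 144 and 84.4 CPM in control libraries (fold 0.70 ± 0.18, adjusted p = 0.154), and control library 3 exceeded mutant library 2. Fosb, of the AP-1 family, had 88.9, 94.2, 105 and 129 CPM in mutant libraries and 58.0, 74.8, 60.4 and 42.2 CPM in control libraries (fold 0.79 ± 0.22, adjusted p = 0.178), with no overlap. Junb, of the same family, was the lower gene, with a fold of -0.33. With the astrocyte and neuron covariate the same numbers, 5 higher and 1 lower, were found. Of 30 tested cytokine and inflammasome genes, 0 were called, with 3 higher and 3 lower at an unadjusted p under 0.05. Il1b, the main inflammasome cytokine, had 338, 329, 206 and 301 CPM in mutant libraries and 166, 154, 196 and 169 CPM in control libraries (fold 0.78 ± 0.20, adjusted p = 0.174). The chemokine Ccl5 had 277, 196, 205 and 323 CPM in mutant libraries and 80.8, 129.8, 199 and 79.3 CPM in control libraries (fold 1.00 ± 0.30, adjusted p = 0.226), and Ccl4 had a fold of 0.57 ± 0.21. Il1rn, the antagonist of the IL-1 receptor, averaged 3.30 CPM in mutant and 8.84 CPM in control cells (fold -1.45 ± 0.53, adjusted p = 0.335).

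**Figure D3:**
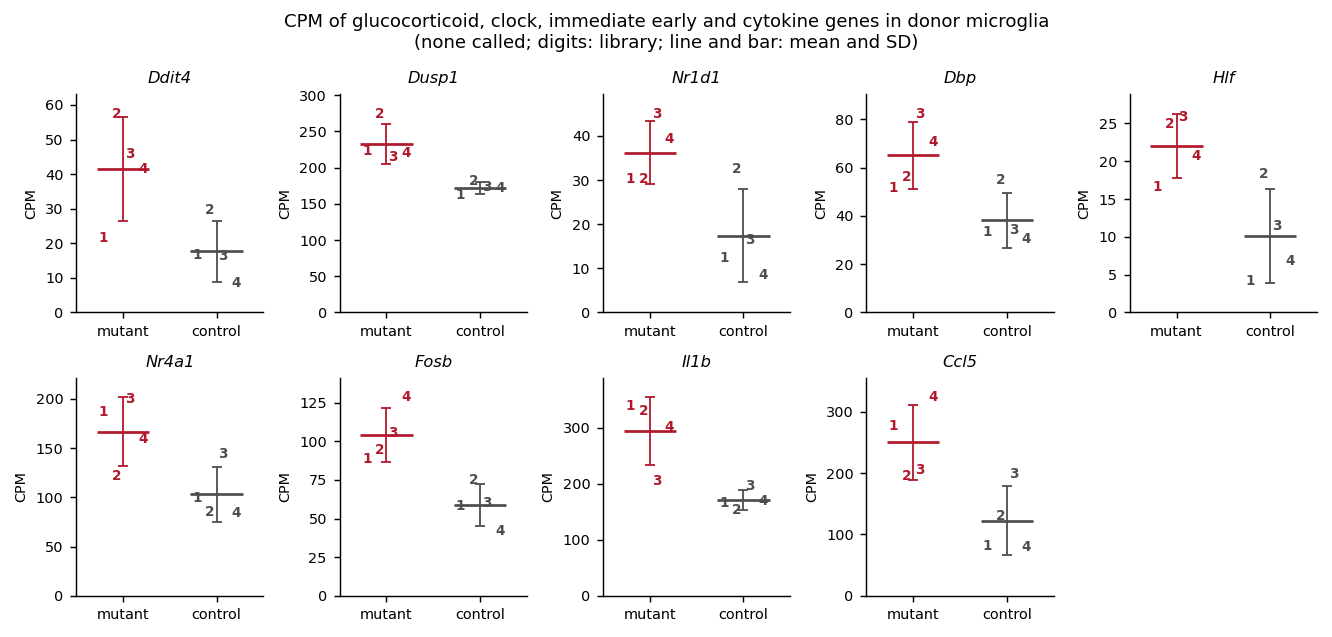
CPM (y axis, from 0) of 9 genes of the glucocorticoid, clock, immediate early and cytokine lists, none of them called, in donor microglia of mutant (red, left) and control (grey, right) chimeras, with digits giving the library, lines the mean and bars the SD of 4 libraries. Dusp1, Fosb and Il1b do not overlap between genotypes, while control library 2 reaches the mutant range in Nr1d1 and mutant library 1 falls into the control range in Ddit4.

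Genes that set the identity of these cells showed no calls. Of 29 tested marrow-derived microglial genes, 0 were called, and 0 were higher and 6 lower at an unadjusted p under 0.05. Their median was -0.19, with 9 folds above and 20 below 0. Apoe had 86559, 81829, 71849 and 94907 CPM in mutant libraries and 120611, 86681, 102761 and 106350 CPM in control libraries (fold -0.31 ± 0.14, adjusted p = 0.435). Mutant library 4 lay above control library 2. Pmepa1, an inhibitor of TGF-beta signalling, had 630.1, 631, 501 and 582 CPM in mutant libraries and 1069, 700.0, 821 and 830.1 CPM in control libraries (fold -0.54 ± 0.19, adjusted p = 0.311), with no overlap. With the astrocyte and neuron covariate 1 of the 29 was lower at an unadjusted p under 0.05 and the median was 0.04. Of 33 tested homeostatic microglial genes, 1 was higher and 2 were lower at an unadjusted p under 0.05, among them P2ry13, a nucleotide receptor (fold -0.47 ± 0.20, adjusted p = 0.425). Of the homeostatic genes, 4 had folds above and 29 below 0. Their median was -0.16, and 0.04 with the astrocyte and neuron covariate. Of 26 tested border macrophage genes, 0 were called, and 2 were higher and 1 lower at an unadjusted p under 0.05, with 12 folds above and 14 below 0 and a median of -0.04. Lists of interferon response (41 tested), MHC class II (12), disease-associated microglia (27), lysosome and phagocytosis (33) and p53 targets (24) each gave 0 calls, and their medians lay between -0.08 and 0.15. Among single genes, picked from the border macrophage and dendritic cell lists by their p, the lectins Mgl2 and Clec10a and the receptor Cd209a, found on dendritic cells and some border macrophages, were higher in all 4 mutant libraries than in any control library without being called. Mgl2 had 70.3, 69.3, 81.3 and 76.7 CPM in mutant libraries and 58.0, 40.9, 32.6 and 50.6 CPM in control libraries (fold 0.72 ± 0.21, adjusted p = 0.178). Cd209a had 33.2, 33.5, 31.5 and 31.1 CPM in mutant libraries and 10.4, 24, 8.16 and 15.2 CPM in control libraries (fold 1.12 ± 0.32, adjusted p = 0.182). Mrc1, the mannose receptor of border macrophages, went the other way, at 195, 175, 201 and 187 CPM in mutant libraries and 230.1, 246, 276 and 216 CPM in control libraries (fold -0.35 ± 0.15, adjusted p = 0.403).

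**Figure D4:**
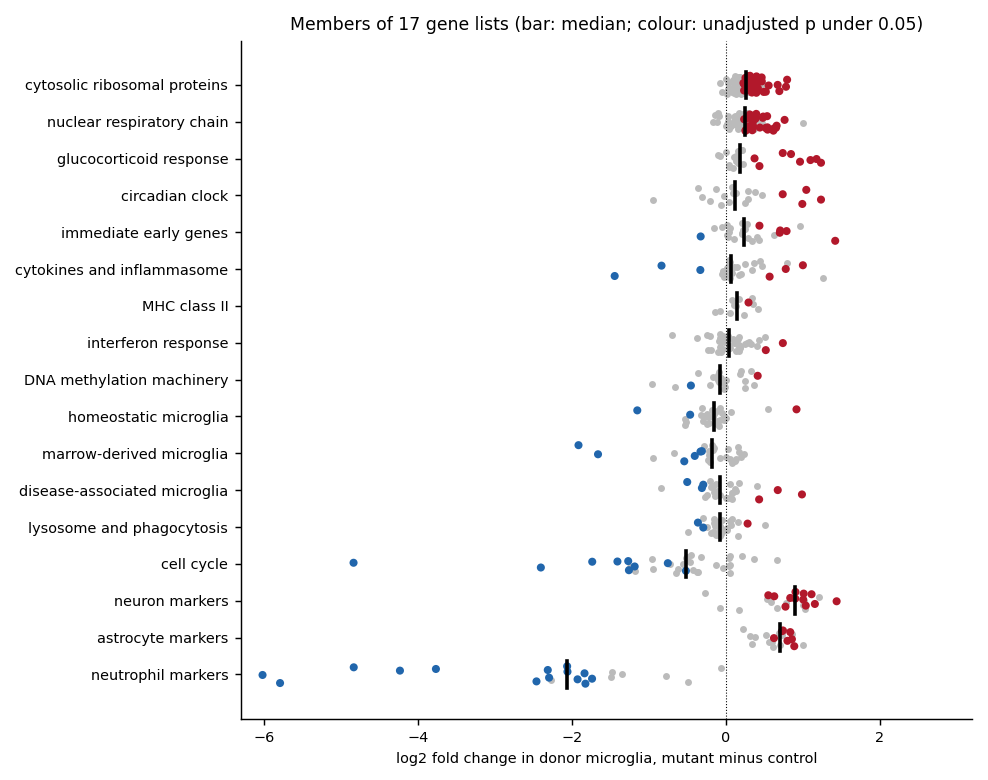
Log2 fold change, mutant minus control, in donor microglia (x axis) of each tested member (point) of 17 gene lists (y axis), with a black bar at the median of the list, red and blue points for higher and lower genes at an unadjusted p under 0.05, and grey points for the rest. Ribosomal and respiratory chain genes form narrow clouds with medians of 0.25, neuron and astrocyte markers lie at medians of 0.90 and 0.70, and neutrophil markers spread down to -6.02 with a median of -2.06.

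Transcripts of other cell types differed in amount between the libraries. Fibroblast, choroid plexus and ependymal markers took the largest share of these lists, 2.14% to 3.53% of UMIs in mutant and 1.68% to 3.25% in control libraries. In control donor leptomeningeal cells they took 0.016% to 0.055%. Of 14 tested, 0 were higher and 1 lower at an unadjusted p under 0.05 (median -0.02), and they were not used as a covariate. Of 23 tested neuron markers, 12 were higher and 0 lower at an unadjusted p under 0.05 (median 0.90), and of 20 astrocyte markers, 7 and 0 (median 0.70). Neuron markers took 0.194%, 0.244%, 0.292% and 0.183% of UMIs in mutant libraries and 0.056%, 0.262%, 0.077% and 0.110% in control libraries. Astrocyte markers took 0.478%, 0.670%, 0.800% and 0.518% of UMIs in mutant libraries and 0.178%, 0.860%, 0.212% and 0.293% in control libraries. Control library 2 thus resembled the mutant libraries in both, and the other 3 control libraries lay below them. The kinase Camk2a, of neurons, had 227, 286, 450.3 and 288 CPM in mutant libraries and 70.5, 343, 93.0 and 148 CPM in control libraries. Of 21 tested neutrophil markers, 0 were higher and 14 lower at an unadjusted p under 0.05. They took 0.148%, 0.134%, 0.207% and 0.119% of UMIs in mutant libraries and 0.152%, 0.330%, 0.908% and 1.19% in control libraries, so that control libraries 3 and 4 stood apart and control library 1 lay in the mutant range. S100a8, a calcium-binding protein of neutrophils, had 119, 132, 239 and 189 CPM in mutant libraries and 203, 384, 1525 and 1611 CPM in control libraries, and the groups overlapped. Of 36 tested cell cycle genes, 0 were higher and 9 lower at an unadjusted p under 0.05, with a median of -0.51. With the neutrophil genes as a covariate, 4 cell cycle genes were higher and 0 lower, and the median was 0.18. The part of neuron, astrocyte and neutrophil RNA in the calls was not tested beyond these covariates. In bulk RNA, fewer cells of a type and less RNA per cell cannot be told apart.

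Spint1, Commd10 and Hps6 were called with the astrocyte and neuron covariate, and Spint1, Commd10, Per1, Apobec3, Gatm, Tsc22d3 and Rpl38 with the neutrophil covariate. The first principal component of the 8 libraries held 29.8% of the variance and placed control library 2 (-38.8) with mutant libraries 1 to 4 (-7.55, -25.7, -35.7 and -18.5), apart from control libraries 1, 3 and 4 (69.6, 33.6 and 23). Mutant library 4, the shallowest of its group, stood apart on the next principal components. Without control library 1 and mutant library 4 together, 6 genes were called, all higher, and 5 of them were among the 11.

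**Figure D5:**
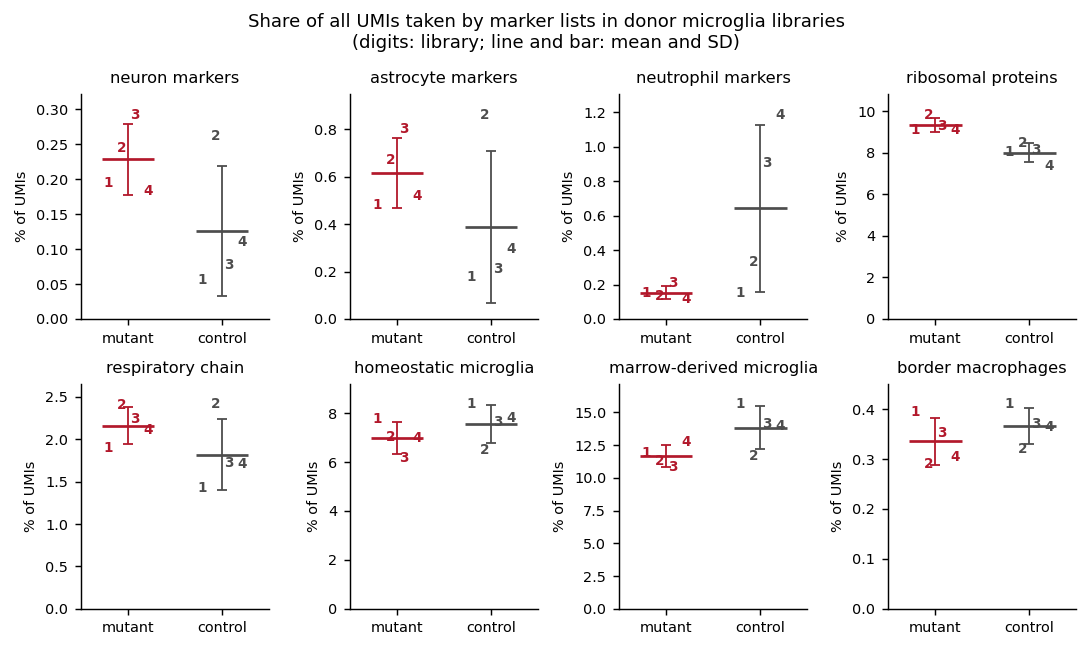
Share of all UMIs, in percent (y axis, from 0), that 8 gene lists took in donor microglia libraries of mutant (red, left) and control (grey, right) chimeras, with digits giving the library, lines the mean and bars the SD of 4 libraries. Control library 2 lies at or near the mutant level for neuron, astrocyte and respiratory chain genes, control libraries 3 and 4 hold the most neutrophil RNA, and the ribosomal shares do not overlap.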

How the data were processed

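Bulk MARS-seq libraries had been prepared from sorted cells, and the authors deposited UMI counts per gene for 28 libraries, aligned to mm10 per the submitters' processing notes. No label or file header used here names the aligner. The 56 deposited normalized and rlog columns were not used. Of 14617 genes, 12327 passed edgeR's filterByExpr. One mean per group was fitted over all 28 libraries with edgeR 4.0.16 (R 4.3.3), using TMM scaling, the robust quasi-likelihood test and a Benjamini-Hochberg threshold of 0.05. Alternatives used DESeq2 1.42.0 and limma 3.58.1. The code was tested on simulated data. Named genes were all called genes, the 10 next by p in each direction with a mean of at least 10 CPM and no overlap between genotypes, up to 4 members per gene list with the smallest p, some fixed identity genes, and up to 3 neighbours on each side of a called gene. The members, gene lists, tests and alternatives were chosen with earlier results of these data known. Other genes were named after their values were seen. Gene positions come from GENCODE M21. The labels do not say whether equal replicate numbers mark the same animals. The main fit used no replicate block and treated donor and host libraries as independent. A possible pairing of donor and host libraries was not checked. The cell type covariates were the log2 CPM of summed marker lists. Control library 1 and mutant library 4, which lay far out on principal components, were left out together. That fit kept control library 2. Rank correlations of control library 2 with the other control libraries were 0.860 to 0.896, against 0.906 to 0.924 among those others.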

Additional observations from a re-analysis of the deposited data

Results flagged for a closer look

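The genotype effect in donor minus host microglia was tested as an interaction and passed for 4 genes, Spint1 at 2.66, Commd10 at 1.64, Apobec3 at -0.89 and Gatm at -0.98 on the log2 scale. The calls of Commd10, Gatm and Apobec3 were lost under 1, 7 and 12 of 24 alternatives. Among 118 groups of 4 libraries, 5 had 1 library far from the other 3, and chance gives about 1 in 20. Eps8l1 had 36.1 CPM in mutant library 1, against 26.8 to 27.1 CPM in the other mutant libraries. Dusp1 had 274 CPM in mutant library 2, against 215 to 223 CPM in the other mutant libraries. Dbp had 55.0 CPM in control library 2, against 30.4 to 34.3 CPM in the other control libraries. Astrocyte markers took 0.860% of UMIs in control library 2, against 0.178% to 0.293% in the other control libraries. Mutant library 4 held 487382 UMIs, against 937447 to 1013608 in the other mutant libraries.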

How the results depend on the processing

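The 11 calls between mutant and control donor microglia became 17 without the low-count filter, 72 with DESeq2 and 124 with voom. The number of calls became 4 with the 8 libraries fitted alone (Spint1, Commd10, Per1 and Plac8). With the astrocyte and neuron covariate it was 4 as well (Spint1, Commd10, Hps6 and Ly6a). Plac8 and Ly6a were not among the 11. Without control library 1 and mutant library 4 together the number became 6. Leaving out 1 library gave 3 to 544 calls. For donor minus host microglia, DESeq2 called 14 genes, and the fit without control donor library 1 and mutant donor library 4 called 2. Leaving out 1 library gave 2 to 74. For donor microglia minus leptomeningeal cells, DESeq2 called 2 genes, voom 1 and the replicate block 1, and leaving out 1 library gave 0 to 149. The replicate block gave 13 calls in donor microglia. Correlations of same-numbered deviations between mutant and control donor libraries were 0.125, 0.0696, -0.115 and 0.0072. Those of differently numbered libraries ranged from -0.189 to 0.211. With the neutrophil covariate the signs turned for Hdc (0.20), Chil3 (0.28), Hp (0.14), S100a9 (0.037) and Dnmt3a (0.12). Leaving out 1 library gave Dnmt3a folds of -0.17 to 0.048. The cause of these changes was not tested. Spint1 and Commd10 were called under all 17 alternatives, and without control library 1 they and Per1 were the only calls. Genes below 2.96 to 6.26 CPM rest on 3 UMIs or fewer.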

Other observations

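Markers of further cell types gave 0 calls in donor microglia. Of all genes tested, 5.39% were higher and 4.77% lower at an unadjusted p under 0.05. At an unadjusted p under 0.05, 4 of 20 dendritic cell markers were higher and 2 lower (median 0.33), 3 of 26 T and NK cell markers were higher and 0 lower (median 0.31), and 3 of 11 erythroid and platelet markers were higher and 0 lower (median 0.82). Of 21 monocyte markers, 1 was higher and 4 were lower (median -0.32). All 7 tested mitochondrially encoded genes had a fold above 0 (median 0.38), none with an unadjusted p under 0.05, and the median was -0.17 with the astrocyte and neuron covariate. Of 24 TGF-beta signalling genes, 0 were higher and 3 lower (median -0.16).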
